A study of Mus musculus with 2 samples.

Results

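The genes followed here were 10 genes of myoblast fusion among the 32285 genes of the count matrices. They were the muscle fusogens Mymk and Mymx, the ferlins Myof, Dysf and Fer1l5, the cadherins Cdh15 and Cdh2, the tetraspanins Cd9 and Cd81, and the adhesion molecule Jam3. They were chosen by name for their known part in fusion or in membrane repair, with earlier results of these data known. All 10 were present in both matrices. In the MOV library 9 of them had at least 20 UMIs, the limit used for a comparison, and in the sham library 7 did. Fer1l5 was close to unseen, with 0 UMIs in the MOV library and 1 UMI in the sham library.

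Muscle grows and repairs itself when muscle stem cells (MuSCs) leave quiescence, divide, commit to differentiation under the transcription factor Myog, and merge with one another or with an existing fibre. The adhesion molecules bring the membranes together. Mymk (myomaker) and Mymx (myomixer, also called myomerger) are muscle-specific membrane proteins that complete the merger, with Mymk acting at the mixing of the outer leaflets and Mymx at pore formation. Ferlins are calcium-sensing proteins of membrane traffic and repair, cadherins join like cells, and the tetraspanins organise membrane proteins and are known to restrain or guide cell fusion in several tissues.

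Droplet-based single-cell RNA-seq with 3′ counting (10x Genomics) was used on cells sorted from the plantaris muscle of Pax7rtTA; TRE-H2B-GFP mice aged 26 weeks, in which the Pax7 promoter drives the doxycycline-dependent activator and doxycycline switches on a GFP-tagged histone. All mice had received doxycycline at 2.0 mg/ml in their drinking water for 2 weeks. The groups were sham surgery and mechanical overload (MOV) by removal of the synergist muscles, both at 5 days after surgery, with 1 library each. With 1 library per condition there is no replicate check, no test was made, and every interval below is a 95% interval that covers counting error only.

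The sham library held 1100 cell barcodes and 7302661 UMIs, and the MOV library 3854 barcodes and 88498487 UMIs. After cells with 10% or more mitochondrial UMIs, cells under 1000 UMIs, called doublets and shallow copies of shared barcodes had been removed, 671 sham and 2778 MOV cells remained, with medians of 5837 and 23466.5 UMIs. Both libraries are labelled as muscle stem cells, but by marker UMIs 118 sham cells (17.6%) were MuSCs and 393 (58.6%) were fibre droplets, that is droplets rich in the adult fast myosins. In the MOV library 1453 cells (52.3%) were MuSCs, 151 (5.44%) were Myog cells, 63 (2.27%) were Myl4/Myh3 cells and 18 (0.648%) were fibre droplets. A Myog cell had at least 2 Myog UMIs per 10000, and a Myl4/Myh3 cell at least 5 UMIs per 10000 of the embryonic sarcomere genes Myl4 and Myh3. No fusion gene was used to set a group. Of the other lineages, the fibro-adipogenic-like cells (443 in MOV) served as the level of these transcripts in cells outside the myogenic lineage.

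Cell barcodes were shared between the libraries in 44 cases. In each of them the shallow copy held 0.348% to 4.32% of the UMIs of the deep copy, and 39 of the deep copies lay in the sham library. The shallow copies were dropped. The deep sham copies included 10 of the 118 MuSCs, which held 520060 of their 1.52449e+06 UMIs at a median of 51188.5 UMIs, and also the only sham Myog cell and 19 of the fibre droplets. The quiescence-marker MuSCs, described below, included 0 shared barcodes in either library. Comparisons of whole sham MuSCs are therefore given with and without the shared barcodes.

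The fusogens are placed first, because the results turn on these transcripts, in the GENCODE vM21 annotation of GRCm38. Mymk (ENSMUSG00000009214) lies on the minus strand at chr2:27061636-27072179. Mymx (ENSMUSG00000079471) lies on the minus strand at chr17:45600971-45602102. Its coding part without the stop codon is at chr17:45601420-45601671, in 1 of 2 exons, and has 255 bases with the stop codon for 84 residues. It is shown whole, 5′ to 3′, with the start and stop codons in capitals.
Mymx: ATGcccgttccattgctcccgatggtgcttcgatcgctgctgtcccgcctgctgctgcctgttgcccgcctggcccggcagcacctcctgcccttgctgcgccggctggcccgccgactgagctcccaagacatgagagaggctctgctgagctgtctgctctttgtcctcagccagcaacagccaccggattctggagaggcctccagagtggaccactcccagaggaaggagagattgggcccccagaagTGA

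Cdh15, which codes for M-cadherin, marked the myogenic cells in these data, so its promoter is shown as well. RefSeq promoter sequences (GRCm38.p6, 250 bases before to 50 bases after a start) were matched for 6 of the 10 members. The window of Cdh15, chr8:122848124-122848423 on the plus strand, held 4 E-boxes (CANNTG, the letters bound by Myod1 and Myog, which read the same on both strands), in capitals below. At least 1 such match was present in 72.3% of all 32851 promoters, so the presence of a match is common, and CAGCTG, a subset of CANNTG that occurred in 16.3% of all promoters, was not found in this window. The window was set by a RefSeq start and lies inside the gene as annotated by GENCODE, which starts upstream of it at chr8:122847966.
Cdh15: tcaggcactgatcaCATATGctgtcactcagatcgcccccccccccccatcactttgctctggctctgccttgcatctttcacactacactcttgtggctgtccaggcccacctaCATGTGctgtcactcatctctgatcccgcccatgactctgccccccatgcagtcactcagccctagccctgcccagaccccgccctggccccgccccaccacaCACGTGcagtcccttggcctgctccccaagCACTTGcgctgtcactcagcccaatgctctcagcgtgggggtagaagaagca

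The other members lie apart in the genome (GRCm38). Myof is at chr19:37899036-38043577 (minus strand), Dysf at chr6:84008590-84211060 (plus), and Fer1l5 at chr1:36372291-36422110 (plus), where Lman2l overlaps it on the opposite strand. Cdh15 is at chr8:122847966-122867397 (plus), Cdh2 at chr18:16588877-16809246 (minus), Cd9 at chr6:125460266-125494791 (minus), Cd81 at chr7:143052739-143067934 (plus) and Jam3 at chr9:27097384-27155421 (minus). The annotated gene Gm20388 overlaps Cdh15 on the same strand and was no feature of the matrices. Dysf also has an overlap on the same strand, with the processed pseudogene Gm7498.

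The groups were checked against their own markers and against genes that had not set them. MuSCs expressed all 8 genes of the MuSC list, with a summed list level of 1461 CPM (UMIs per 1e+06 UMIs of the group) in sham and 632 CPM in MOV, against 14.7 CPM in the fibro-adipogenic-like cells of MOV. The summed list was at 515 CPM in Myog cells and 357 CPM in Myl4/Myh3 cells. Myog itself was at 19.3 CPM in MOV MuSCs, 1354 CPM in Myog cells and 2692 CPM in Myl4/Myh3 cells. A summed list of sarcomere genes that set no group held Myh8, Actc1, Tnnt2, Acta1, Mylpf, Tnni1 and Myl1. It was at 530 CPM in MuSCs, 2317 CPM in Myog cells, 25102 CPM in Myl4/Myh3 cells and 109339 CPM in the sham fibre droplets. In those droplets nearly all of it was Acta1, Mylpf and Myl1, at 53164, 29080 and 27042 CPM. The other genes were low there, with Actc1 at 43.2, Tnni1 at 5.54, Tnnt2 at 3.32 and Myh8 at 0.369 CPM. Tnnt2 was at 54.7 CPM in MuSCs, 540 CPM in Myog cells and 2854 CPM in Myl4/Myh3 cells. The summed list of 5 tenocyte genes moved with the fusogens, at 35.7 CPM in MuSCs, 118 CPM in Myog cells and 177 CPM in Myl4/Myh3 cells. Nearly all of it was Scx, at 29.8, 114 and 171 CPM. The other tenocyte genes stayed low, with Tnmd at 1.37, 1.08 and 1.23 CPM, Kera at 0 UMIs in Myog cells and Mkx at 0 UMIs in Myl4/Myh3 cells. The cuts fall within a continuum. Of all kept MOV cells, whatever their group, 44 lay between the Myog cut and 2 times the cut. A further 92 lay between 0.5 of the cut and the cut.

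The fusogens were the members that differed most from MuSCs in both committed groups of MOV. Mymk stood at 10.6 CPM in MuSCs (457 UMIs in 1453 cells), 239 CPM in Myog cells (1553 UMIs in 151 cells) and 1081 CPM in Myl4/Myh3 cells (3509 UMIs in 63 cells). Its level in Myog cells exceeded that in MuSCs by 4.49 on the log2 scale (interval 4.34 to 4.64), and its level in Myl4/Myh3 cells exceeded that in Myog cells by a further 2.18 (2.09 to 2.27). Mymx followed the same order, at 4.68 CPM (201 UMIs), 100 CPM (653 UMIs) and 526 CPM (1707 UMIs). Its log2 differences were 4.42 (4.19 to 4.66) and 2.39 (2.26 to 2.52). The Poisson intervals of the 3 groups did not overlap for either gene.

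**Figure D1:**
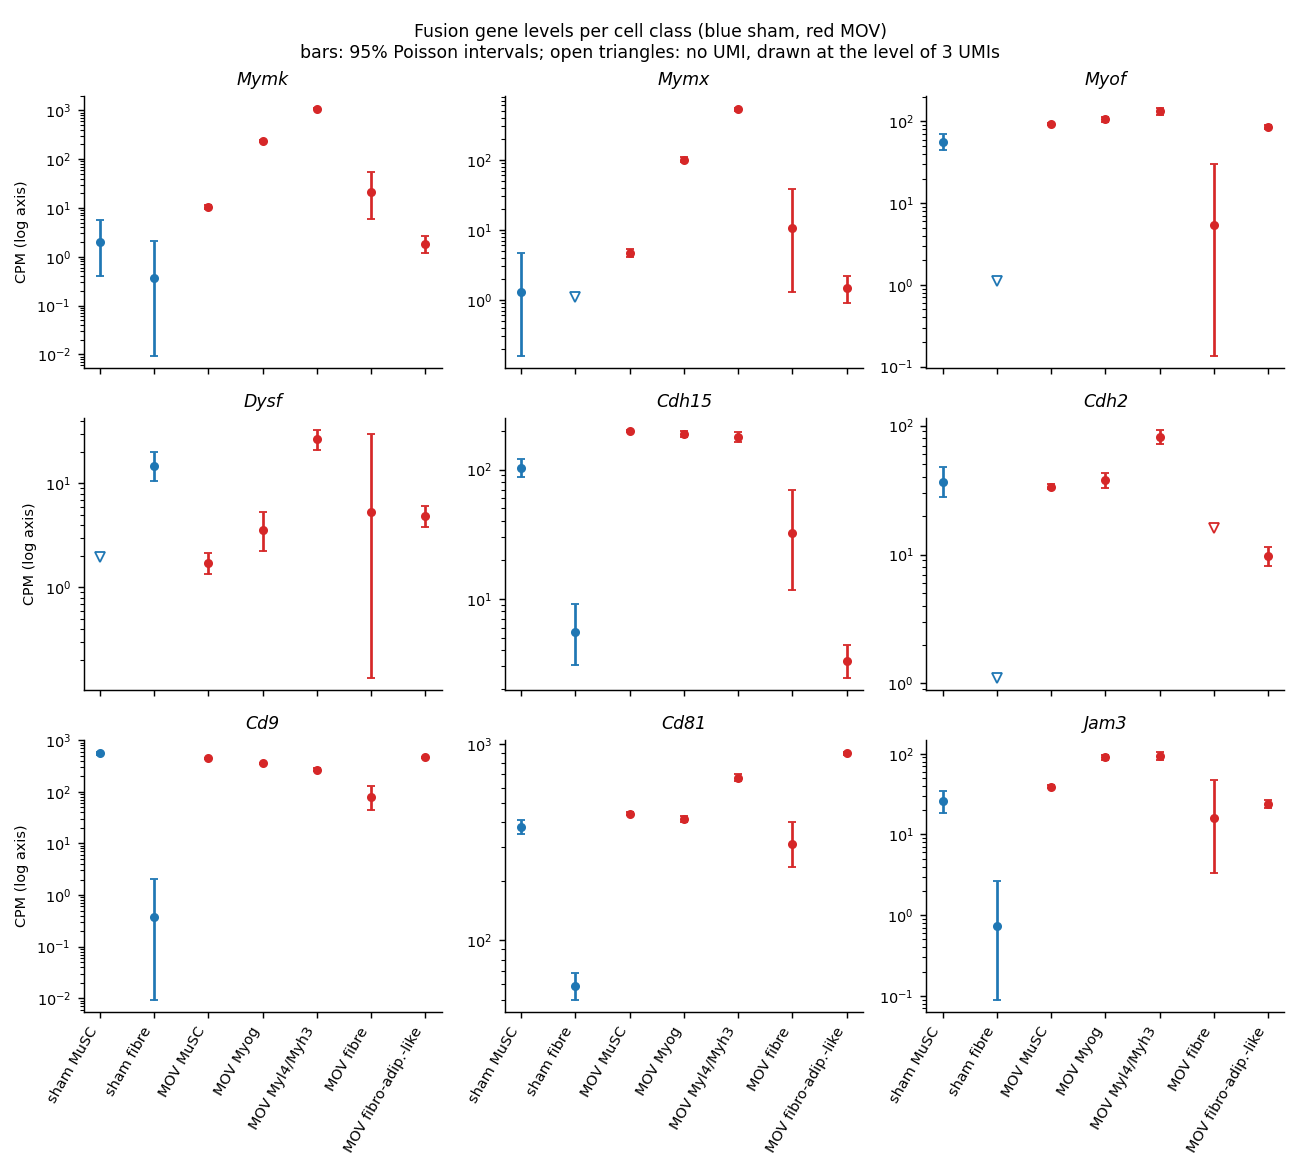
Level of the fusion genes in each cell group of both libraries, in CPM of the summed group on a log axis, with 95% Poisson intervals. In MOV, Mymk reached 1081 CPM and Mymx 526 CPM in Myl4/Myh3 cells against 10.6 and 4.68 CPM in MuSCs, while Cdh15 stayed between 178 and 198 CPM over the same groups.

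Among the 9 members with at least 20 UMIs, 4 were at least 2-fold higher in Myog cells than in MuSCs (Mymk, Mymx, Jam3 and Dysf) and 0 were at least 2-fold lower. Of all 13139 genes compared, 4.22% were at least 2-fold higher and 8.72% at least 2-fold lower. Between Myl4/Myh3 cells and MuSCs, 5 of 9 members were at least 2-fold higher (the same 4 and Cdh2) and 0 lower, where 10% of 13116 genes were higher and 17.4% lower, or 12.1% and 13.7% with TMM scaling. Between Myl4/Myh3 cells and Myog cells, 4 of 9 were at least 2-fold higher (Mymk, Mymx, Dysf and Cdh2) and 0 lower, where 6.54% of 10638 genes were higher and 6.43% lower. The median over the members was 0.20, 1.27 and 0.69 on the log2 scale in the 3 comparisons, beside -0.08, -0.21 and -0.13 over all genes compared.

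Most fusogen transcripts of the MOV library came from few cells. Mymk had 6335 UMIs in 545 of the MOV barcodes, of which 24.5% lay in Myog cells and 55.4% in Myl4/Myh3 cells, groups that together made up 214 cells. Mymx had 2902 UMIs in 349 barcodes, and 81.3% of them lay in the same 214 cells. The MuSCs held 7.21% of the Mymk UMIs and 6.93% of the Mymx UMIs. Within the Myog cells, Mymk varied from 0 to 1893 CPM with a median of 102 CPM, and the top 16 cells carried 46.0% of the UMIs. Within the Myl4/Myh3 cells the median was 1034 CPM and the highest cell reached 4517 CPM, or 234 Mymk UMIs in a single cell. The median of Mymx was 38.7 CPM in Myog cells and 388 CPM in Myl4/Myh3 cells, with a highest cell of 3479 CPM.

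In MuSCs the fusogens were sparse. A Mymk UMI was found in 215 of the 1453 MOV MuSCs, of which 139 had a single UMI and 44 had 3 or more, and those 44 cells held 55.6% of the UMIs. Mymx was found in 105 MuSCs, 77 of them with a single UMI. The background was read in the fibro-adipogenic-like cells, at 1.80 CPM for Mymk and 1.46 CPM for Mymx. Cells with markers of another lineage that also passed a myogenic cut were set aside as mixed, so this background leaves them out. MuSCs exceeded the background by 2.56 (log2, 1.99 to 3.19) for Mymk and 1.69 (1.03 to 2.41) for Mymx. The part of the cuts in these differences was not tested. At a depth of 2000 UMIs per cell, 24 of 1446 MuSCs (1.66%) kept a Mymk UMI, against 0 of 438 fibro-adipogenic-like cells, where a count of 0 allows a share of up to 0.685% (3 cells of 438). A Mymx UMI was kept by 5 MuSCs (0.346%) against 1 of those cells (0.228%). Their median depths before thinning were 22099 and 31673 UMIs, and without thinning 14.8% of MuSCs and 5.19% of fibro-adipogenic-like cells had a Mymk UMI. At 4000 UMIs the Mymx shares were 1.04% of MuSCs and 0.462% of fibro-adipogenic-like cells, and at 10000 UMIs 2.14% (1.42 to 3.07) and 0.990% (0.270 to 2.52). The Mymx share was thus higher in MuSCs at all 3 depths, with intervals that overlap.

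The fusogens were then followed along the Myog share of single cells, pooling MOV MuSCs, Myog cells and Myl4/Myh3 cells. Mymk stood at 9.27 CPM in the 1071 cells without a Myog UMI, 46.8 CPM in cells with 0.5 to 2 Myog UMIs per 10000, 117 CPM at 5 to 10, 524 CPM at 10 to 20 and 1004 CPM at 20 and above (77 cells). Mymx stood at 2.90, 16.8, 47.2, 251 and 480 CPM in the same bins. In the bin from 0.5 to 2, a single Myl4/Myh3 cell with 153774 UMIs held 93 of the 256 Mymk UMIs. For both genes the widest step as a fold lay between the bins from 5 to 10 and from 10 to 20, and both were above their no-Myog level below the cut that defined a Myog cell. Among Myog and Myl4/Myh3 cells, Mymk was at 178 CPM in cells with under 0.5 Myl4 and Myh3 UMIs per 10000 (81 cells) and at 1533 CPM in cells with 20 or more (37 cells), and Mymx was at 52.2 and 719 CPM. Both fusogens were thus present in committed cells with few embryonic sarcomere transcripts and higher in cells with many.

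**Figure D2:**
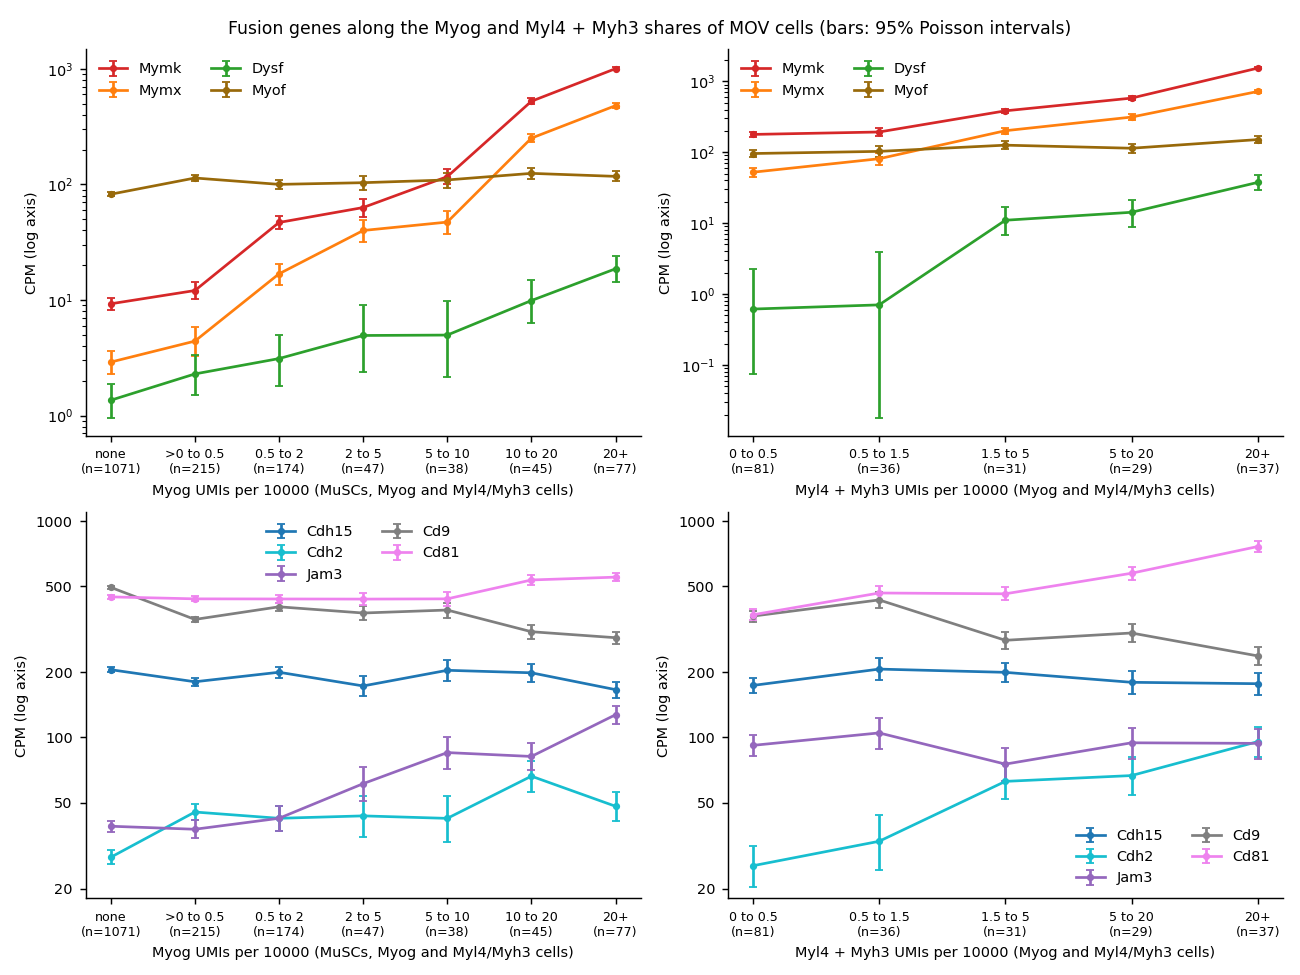
Level of the members in CPM (log axis, 95% Poisson intervals) in MOV cells binned by their Myog UMIs (left) or their Myl4 and Myh3 UMIs (right) per 10000. Mymk runs from 9.27 to 1004 CPM and Mymx from 2.90 to 480 CPM along Myog, while Cdh15 stays between 166 and 206 CPM.

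The proportion between the fusogens was alike in the myogenic groups. Mymk made up 69.5% of the fusogen UMIs in MuSCs (65.8 to 73.0), 70.4% in Myog cells (68.4 to 72.3) and 67.3% in Myl4/Myh3 cells (66.0 to 68.5). Within MuSCs it made up 66.3% in cells with S or G2/M marker expression (61.6 to 70.7) and 75.4% in the others (69.3 to 80.9). The first of these shares includes a single MuSC with 20 of the 145 Mymx UMIs, and its part was not tested. In the fibro-adipogenic-like cells Mymk was 55.3% of 47 UMIs (40.1 to 69.8).

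Co-detection in single cells was read at fixed depths, since a deeper cell shows more of both genes. In the 202 Myog and Myl4/Myh3 cells with at least 2000 UMIs, thinned to that number, 89 had a Mymk UMI and 26 (12.9%) had both, where the product of the separate shares was 9.82%. A Mymx UMI was found in 29.2% of the cells with Mymk (20.1 to 39.8) and in 16.8% of the cells without it (10.4 to 25), and these intervals overlap. At 4000 UMIs the shares were 47.4% (37.9 to 56.9) and 18.6% (11.0 to 28.4), which do not overlap. At 10000 UMIs, a depth added after the data had been seen, 191 cells remained and 86 (45.0%) had both. Mymx was then found in 62.8% of cells with Mymk (54.1 to 70.9) and 35.2% of cells without it (22.7 to 49.4), and these intervals do not overlap either. Without thinning the share among cells with Mymk was 75% (67.9 to 81.2).

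**Figure D3:**
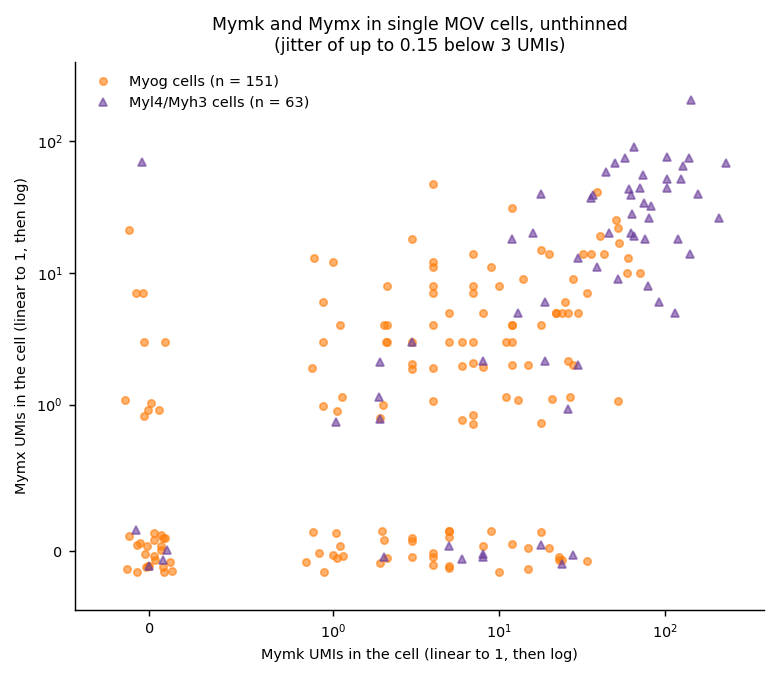
Mymk (x axis) and Mymx (y axis) UMIs of each MOV Myog cell (circles, n = 151) and Myl4/Myh3 cell (triangles, n = 63) without thinning, 1 point per cell, on axes that are linear up to 1 and logarithmic beyond, with jitter below 3 UMIs. Most Myl4/Myh3 cells lie in the upper right, with up to 234 Mymk UMIs, and 23 Myog cells lie at 0 on both axes.

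Narrower groups were read in the same way. Among the 138 Myog cells with 10000 UMIs, 46 had both, 43 Mymk only, 18 Mymx only and 31 neither, and Mymx was found in 51.7% of cells with Mymk (40.8 to 62.4) and 36.7% of cells without (23.4 to 51.7). At 2000 UMIs the same shares were 14.0% and 14.6%. Among the 53 Myl4/Myh3 cells at 10000 UMIs, 40 had both, 8 Mymk only, 1 Mymx only and 4 neither. Among these cells Mymx was found in 83.3% of those with Mymk and 20% of the 5 without it. Split instead by Myog, the 84 cells with under 10 Myog UMIs per 10000 had Mymx in 23.8% of cells with Mymk and 33.3% of cells without, whereas the 107 cells at or above it had 80% (70.5 to 87.5) and 41.7% (15.2 to 72.3). At 2000 UMIs the order in the cells with high Myog was the other way, 33.3% and 42.5%. In these groups by marker or by Myog the intervals with and without Mymk overlapped at 2000 and at 10000 UMIs. Split by depth, the committed cells below their median depth had Mymx, at 10000 UMIs, in 56.1% of cells with Mymk (42.4 to 69.3) and 22.2% of cells without (8.62 to 42.3), which do not overlap, and the deeper cells in 67.5% (56.1 to 77.6) and 48.1% (28.7 to 68.1), which do. Without thinning the intervals did not overlap in Myl4/Myh3 cells, in cells with high Myog, or in Myog cells (69.5%, 60.3 to 77.6, against 30.3%, 15.6 to 48.7). In the unthinned Myog cells, cells with both had a median of 45540 UMIs and cells with neither 17832 UMIs. In MuSCs at 10000 UMIs, 10 of 1311 cells had both, 84 Mymk only and 18 Mymx only, so that Mymx was found in 10.6% of cells with Mymk (5.22 to 18.7) and 1.48% of cells without (0.879 to 2.33), which do not overlap. At 2000 UMIs Mymx was found in 0 of the 24 MuSCs with Mymk (0 to 14.2) and 0.352% of those without (0.114 to 0.819). At 4000 UMIs the shares were 4.55% (0.555 to 15.5) and 0.931% (0.497 to 1.59). The intervals overlapped at both of these depths.

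**Figure D4:**
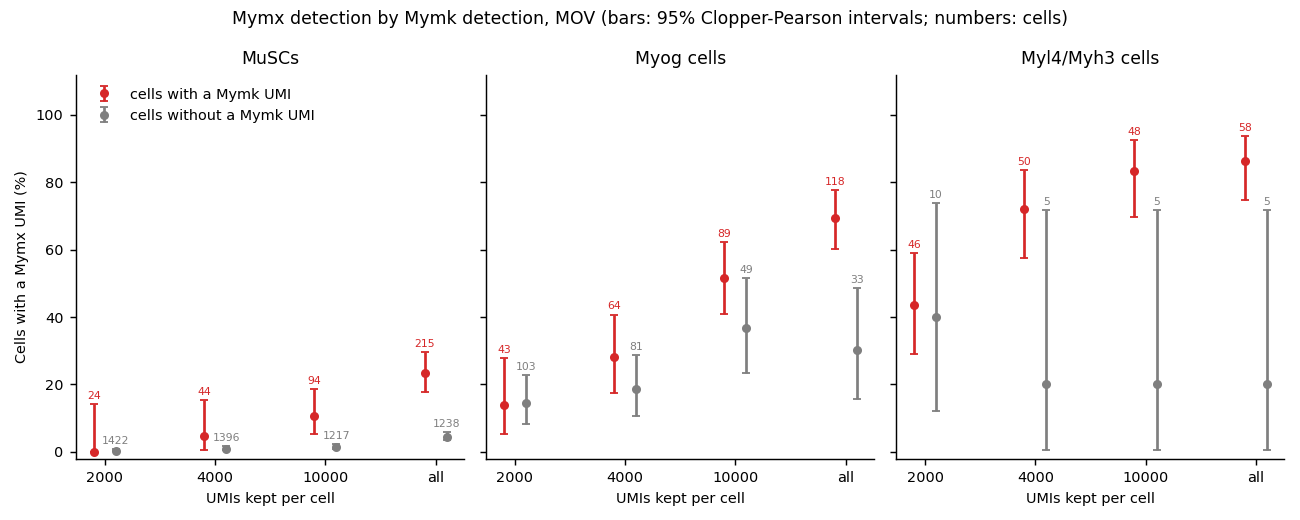
Share of MOV cells with a Mymx UMI among cells with (red) and without (grey) a Mymk UMI, by the UMIs kept per cell, in MuSCs, Myog cells and Myl4/Myh3 cells, with exact binomial 95% intervals and the number of cells above each. In Myog cells the shares are 14.0% and 14.6% at 2000 UMIs and 51.7% and 36.7% at 10000 UMIs.

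In Myog cells the detection of the fusogens went with the level of Myog. The cells were grouped by detection at 10000 UMIs, and the levels were taken from all of their UMIs. Myog was at 2116 CPM in the 46 cells with both and 1203 CPM in those with Mymk only. It was at 800 CPM with Mymx only and 702 CPM in the 31 cells with neither. Pax7, the transcription factor that marks MuSCs, was at 28.1, 40.9, 29.1 and 65.5 CPM in that order. Myod1, the determination factor of myoblasts, was at 267, 254, 340 and 355 CPM, and so was lower in the cells with Mymk. The proliferation marker Mki67, at 97.6, 84.5, 25.2 and 28.1 CPM, was higher in the cells with Mymk, as was Jam3, at 107, 103, 58.2 and 64.7 CPM. Cells sorted by detection also differ in depth, and the part of depth in these levels was not tested. Without thinning, the 31 cells with neither held 38 Mymk UMIs (29.6 CPM) and 20 Mymx UMIs (15.6 CPM).

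Cell-cycle markers were present in cells with fusogens. Of the 151 Myog cells, 45 (29.8%, 22.6 to 37.8) passed the S or G2/M marker cut, as did 25 of the 82 with both fusogens (30.5%, 20.8 to 41.6). It was passed by 8 of the 36 with Mymk only (22.2%, 10.1 to 39.2) and 9 of the 23 with neither (39.1%, 19.7 to 61.5). These shares, from detection without thinning, did not follow the order of the Mki67 levels above. In the Myl4/Myh3 cells 9 of 63 (14.3%) passed the cut, as did 8 of the 50 with both fusogens (16%). In MuSCs 662 of 1453 (45.6%) passed it, with 70% of the 50 cells with both fusogens, 57.0% of the 165 with Mymk only and 42.2% of the 1183 with neither. Their median depths were 57563, 34456 and 20256 UMIs, so detection of the fusogens moved with depth. The level of Mymk, which does not depend on detection, was 10.4 CPM in cycling MuSCs and 11.0 CPM in the others (log2 -0.08). Mymx was at 5.31 and 3.59 CPM (log2 0.56, 0.11 to 1.03). A single cycling MuSC held 20 of the 145 Mymx UMIs of the cycling MuSCs, and its part in this difference was not tested. Of the 9 members, 0 differed 2-fold between cycling and other MuSCs, where 8.25% of 12919 genes were at least 2-fold higher and 6.9% at least 2-fold lower.

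The ferlins differed from each other. Myof (myoferlin), known from the pre-fusion phase, was present in every myogenic group of MOV, at 92.4 CPM in MuSCs, 106 CPM in Myog cells and 133 CPM in Myl4/Myh3 cells. The differences from MuSCs were 0.20 (0.08 to 0.31) and 0.53 (0.38 to 0.67) on the log2 scale. It was not particular to muscle cells, since the fibro-adipogenic-like cells held 85.6 CPM and the mural-like cells 123 CPM. Dysf (dysferlin), which acts in the repair of the fibre membrane, was at 1.70 CPM in MuSCs (73 UMIs), 3.54 CPM in Myog cells (23 UMIs) and 26.5 CPM in Myl4/Myh3 cells (86 UMIs). Its difference between Myog cells and MuSCs was 1.06 (0.31 to 1.75), and it turned to -0.99 when the marker cuts of the groups were halved. Its difference between Myl4/Myh3 cells and MuSCs was 3.96 (3.49 to 4.43). Along the Myl4 and Myh3 share, Dysf was at 0.615 and 0.704 CPM in the bins below 1.5 per 10000 and at 11.0, 14.2 and 37.5 CPM above. Among the other lineages of MOV with at least 20 cells, Dysf was highest in the endothelial-like cells, at 75.5 CPM (19 UMIs). Fer1l5, a ferlin close to Myof and Dysf, had its single UMI in a sham tenocyte-like cell.

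The cadherins differed with differentiation. Cdh15 was nearly level over the myogenic groups of MOV, at 198 CPM in MuSCs, 188 CPM in Myog cells and 178 CPM in Myl4/Myh3 cells, with log2 differences from MuSCs of -0.07 (-0.16 to 0.02) and -0.15 (-0.27 to -0.03). The latter sign turned to 0.020 with TMM scaling and to 0.063 with halved cuts. It was the member that best set the myogenic lineage apart, at 3.33 CPM in fibro-adipogenic-like cells (log2 5.89) and with 0 UMIs in the endothelial-like, mural-like and Schwann-like cells. Cdh2 (N-cadherin) was at 33.7 CPM in MuSCs, 37.5 CPM in Myog cells and 82.0 CPM in Myl4/Myh3 cells, and its difference between the last groups was 1.13 (0.87 to 1.38). It was also present at 71.8 CPM in Schwann-like and 41.1 CPM in mural-like cells. Over MuSCs and fibro-adipogenic-like cells, 4 of 9 members were at least 2-fold higher in MuSCs (Mymk, Mymx, Cdh15 and Cdh2) and 2 lower (Dysf and Cd81), where 16% of 13863 genes were higher and 19.8% lower.

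The tetraspanins moved apart. Cd9, known to limit fusion in regenerating muscle together with Cd81, was at 447 CPM in MuSCs, 356 CPM in Myog cells and 269 CPM in Myl4/Myh3 cells. Its log2 differences from MuSCs were -0.33 (-0.39 to -0.27) and -0.73 (-0.83 to -0.63). Cd81 was at 442, 416 and 673 CPM in the same groups and was higher in Myl4/Myh3 cells than in MuSCs by 0.61 (0.54 to 0.67). Along the Myl4 and Myh3 share, Cd81 was at 369 CPM in the lowest and 763 CPM in the highest bin, and Cd9 at 364 and 238 CPM. Both were widespread outside the lineage, with Cd9 at 4272 CPM in the Schwann-like cells of MOV and Cd81 at 1347 CPM in the endothelial-like cells.

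Jam3, a junctional adhesion molecule and receptor for Jam2, was at 39.0 CPM in MuSCs, 90.1 CPM in Myog cells and 94.0 CPM in Myl4/Myh3 cells. It was higher than in MuSCs by 1.21 (1.07 to 1.35) in Myog cells and did not differ beyond counting error between Myog and Myl4/Myh3 cells (0.06, -0.14 to 0.26). Jam3 thus stepped with Myog, whereas Cdh2, Dysf and Cd81 stepped with Myl4 and Myh3.

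The MuSCs of MOV were divided by state markers. Cells with quiescence markers (241 cells) had the lower Mymk, at 6.13 CPM, and the lower Myof, at 43.2 CPM, against 12.4 and 115 CPM in the 227 cells with the matrix genes Gpc3, Islr, Mgp and Spp1. The log2 differences were 1.02 (0.28 to 1.82) for Mymk and 1.41 (1.14 to 1.68) for Myof. Cdh2 went the same way, at 15 and 46.7 CPM (1.63, 1.19 to 2.11), and Mymx was at 1.23 and 4.94 CPM. In this comparison 4 of 9 members were at least 2-fold higher and 0 lower in matrix cells, where 8.3% of 10297 genes were higher and 4.27% lower. Cd9 had the opposite sign, at 653 and 484 CPM. The 84 cells with interferon genes resembled the quiescence-marker cells, with 38.7 CPM of Myof, 4.12 CPM of Cdh2 and 720 CPM of Cd9. Cdh15 was highest in the 60 cells with immediate-early genes, at 316 CPM, and between 180 and 256 CPM in the other states.

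Between conditions, MOV and sham MuSCs were compared as whole groups and within states. Myof was at 92.4 CPM in MOV and 56.4 CPM in sham MuSCs, a log2 difference of 0.71 (0.40 to 1.04). Of the 86 sham UMIs of Myof, 66 came from the 10 cells with shared barcodes, and without these the sham level was 19.9 CPM and the difference 2.21 (1.58 to 2.92). Cdh2 depended on the same cells: 33.7 against 36.7 CPM with them and 33.4 against 11.0 CPM without, where the log2 difference went from -0.13 to 1.61 (0.77 to 2.62). Cdh15 did not depend on them, at 198 against 103 CPM (0.94, 0.72 to 1.18) with them and 198 against 97.6 CPM (1.02) without. Cd9 was lower in MOV, at 447 against 555 CPM (-0.31, -0.41 to -0.21) with them and 449 against 642 CPM (-0.52) without. Jam3 was at 39.0 and 25.6 CPM (0.61, 0.15 to 1.10) with them and the difference was 0.90 (0.28 to 1.59) without. Cd81 was at 442 and 377 CPM (0.23) with them and the difference was 0.35 without.

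**Figure D5:**
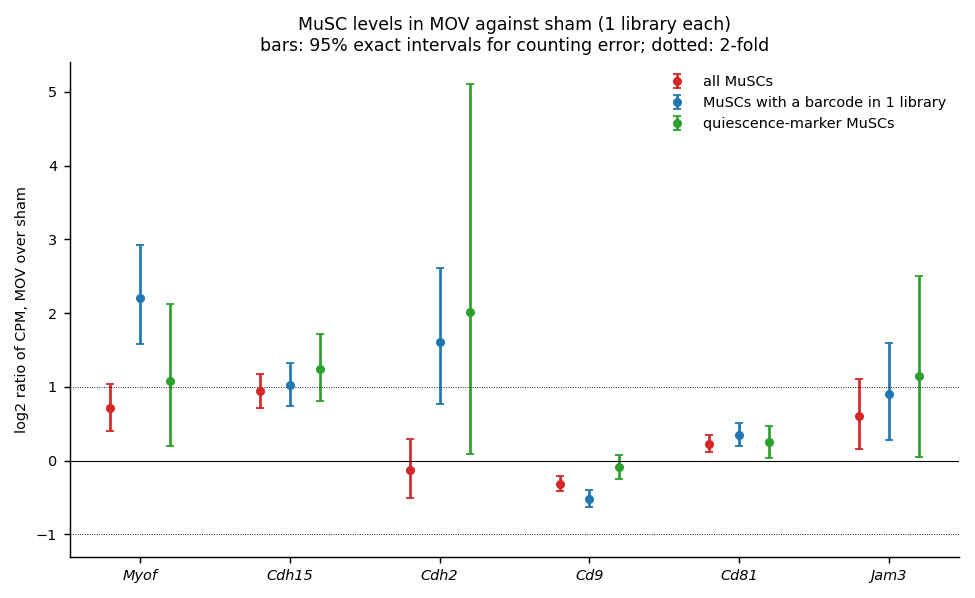
Log2 ratio of CPM in MOV over sham MuSCs for 6 members, with exact 95% intervals for counting error, over all MuSCs (red), MuSCs whose barcode occurs in 1 library (blue) and quiescence-marker MuSCs (green), with dotted lines at 2-fold. Cdh15 lies between 0.94 and 1.24 in all 3 sets, whereas Cdh2 goes from -0.13 over all MuSCs to 1.61 without the shared barcodes.

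The fusogens were rare in sham MuSCs. The sham MuSCs held 3 Mymk UMIs in 1 cell and 2 Mymx UMIs in another, so the log2 differences of MOV to sham were 2.44 (0.88 to 4.72) for Mymk and 1.84 (-0.04 to 4.89) for Mymx. Without the shared barcodes that of Mymk was 1.83 (0.28 to 4.11), and Mymx, then at 0 UMIs in sham, was at least 1.43-fold higher in MOV at a floor of 3 counts for the sham group, which is under 2-fold. Dysf had 0 UMIs in sham MuSCs and 73 in MOV MuSCs (1.70 CPM), which is under the sham floor of 1.97 CPM for 3 counts, so no fold is given. Of the 9 members compared, 2 (Mymk and Mymx) were at least 2-fold higher and 0 lower in MOV, where 11.9% of 12985 genes were higher and 9.42% lower, or 8.66% and 11.9% with DESeq2's size factors. Without the shared barcodes 4 of 9 (Mymk, Myof, Cdh15 and Cdh2) were higher and 0 lower, where 20.1% of 12958 genes were higher and 12.3% lower. The median depth of the sham MuSCs was 8326.5 UMIs against 22099 UMIs in MOV, and its part in these differences was not tested.

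Within the quiescence-marker MuSCs (63 in sham, 241 in MOV), Cdh15 was at 83.5 CPM in sham and 197 CPM in MOV (1.24, 0.80 to 1.71), and Myof at 20.4 and 43.2 CPM (1.08, 0.20 to 2.12). Cdh2 was at 3.71 and 15 CPM (2.02, 0.09 to 5.10), with 2 UMIs in sham. Jam3 was at 13.0 and 28.8 CPM (1.15, 0.05 to 2.50), with 7 UMIs in sham. Cd9 was at 696 and 653 CPM (-0.09). Here 4 of 7 members were at least 2-fold higher and 0 lower in MOV, where 19.9% of 8341 genes were higher and 7.25% lower.

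In the whole sham library Mymk had 12 UMIs in 3 barcodes and Mymx 6 UMIs in 2. Of these, 8 Mymk and 4 Mymx UMIs came from the single sham Myog cell. That cell had 55913 UMIs, 56 Myog UMIs, 0 Myl4 or Myh3 UMIs, 38 UMIs of the MuSC markers, 58 of the G2/M markers and 54 of the S-phase markers. Its barcode was shared, and the MOV copy held 1122 UMIs with 1 Myog UMI. The Mymx-positive MuSC also had a shared barcode, while the MuSC with 3 Mymk UMIs (17815 UMIs) and the fibre droplet with 1 did not. Without the shared barcodes the sham library therefore held 4 Mymk UMIs and 0 Mymx UMIs.

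In the fibre droplets of the sham library, 6 members made up a smaller share of the UMIs than in the MuSCs, and Dysf a larger one. Dysf had 40 UMIs (14.8 CPM) in the 393 droplets and 0 in sham MuSCs, which at a floor of 3 counts for the MuSC group makes it at least 7.51-fold higher in the droplets. Without the shared barcodes it had 35 and 0 UMIs, at least 5.39-fold higher, and with a mitochondrial limit of 5% the bound was 1.82 on the log2 scale, against 2.91. Cd9 had 1 UMI in the droplets and 846 in the MuSCs (-10.55, -15.86 to -8.07). Myof and Cdh2 had 0 UMIs in the droplets against 86 and 56 in the MuSCs, at least 50.9-fold and at least 33.2-fold lower, and without the shared barcodes at least 14.4-fold and 7.94-fold lower, the latter from 11 UMIs in the MuSCs, under the limit for a comparison. Cdh15 was at 5.54 against 103 CPM (-4.22, -5.09 to -3.45), Jam3 had 2 against 39 UMIs, and Cd81 was at 58.7 against 377 CPM (-2.68, -2.95 to -2.43). Of 7 members compared, 1 was at least 2-fold higher and 6 lower. Over all 8481 genes compared 21.6% were higher and 51.4% lower, with a median of -1.09 on the log2 scale, so being lower was the rule in the droplets. Without the shared barcodes, 1 of 6 members was higher and 5 lower, where 25.7% of 7449 genes were higher and 47.8% lower. A summed list of 8 fibre genes (Ckm, Acta1, Tnnt3, Pvalb, Atp2a1, Eno3, Actn3 and Mb) made up 136812 CPM of the droplets, and since CPM is a share of all UMIs, fewer transcripts of a member and more of other genes cannot be told apart. TMM scaling added 0.93 to each log2 difference of this comparison, with Cd81 at -1.75, Cdh15 at -3.28 and Dysf bounded at 3.84, and kept the direction of all 7 members. Over all genes it moved the split to 33.2% higher and 37.2% lower.

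The 18 fibre droplets of MOV were too few for most members. They held 4 Mymk UMIs in 2 droplets (21.4 CPM, log2 difference from MuSCs 1.01, -0.87 to 2.37) and 2 Mymx UMIs in 1 droplet. The summed list of MuSC markers was at 171 CPM there against 38.0 CPM in the sham droplets, and Cd9 was at 80.3 CPM (15 UMIs) against 0.369 CPM. Between the droplets of MOV and sham, 3 members could be compared, of which Cdh15 (6 against 15 UMIs) and Cd81 (58 against 159 UMIs) were at least 2-fold higher in MOV and Dysf (1 against 40 UMIs) lower, where 16.9% of 5629 genes were higher and 13.1% lower. Of 9 members, 3 were at least 2-fold higher than in MuSCs and 5 lower, where 12.2% of 12950 genes were higher and 24% lower. The higher members were Mymk, Mymx (-1.86 to 3.06) and Dysf (1 UMI, -3.67 to 4.18), and the intervals of all 3 span no difference. Among the lower members the interval of Jam3 (3 UMIs, -3.56 to 0.27) does so too.

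A wider list held 54 other genes of adhesion, the cytoskeleton and membrane repair. Of 46 compared in Myog cells against MuSCs, 4 were at least 2-fold higher (8.70%) and 4 lower (8.70%), with a median of -0.29. Over all 13139 genes compared 4.22% were higher and 8.72% lower, with a median of -0.08, so the share of lower genes was that of all genes. The listed genes that were higher were Trim72 (3.72), which patches torn membrane, Itga4 (2.15), an integrin subunit, Elmo1 (1.69), a partner of Dock proteins in Rac activation, and Cav3 (1.65), the muscle caveolin. Those lower were Vcam1 (-1.40), Ehd2 (-1.21), Cd36 and Dock5. In Myl4/Myh3 cells against MuSCs, 47 were compared, with 7 higher (14.9%), 9 lower (19.1%) and a median of -0.40, where 10% of 13116 genes were higher and 17.4% lower. Capn3 (6.36), a muscle protease, Trim72 (5.57) and Cav3 (4.79) were the furthest higher, beside Jam2 (2.29), the partner of Jam3. Boc (-3.34) and Kirrel (-1.98), adhesion receptors of myoblasts, Vcam1 (-1.93), Cxcr4 (-1.55) and Anxa5 (-1.54) were among those lower. In sham fibre droplets 32 of 37 (86.5%) were at least 2-fold lower than in MuSCs and 3 (8.11%) higher, with a median of -3.48. Over all 8481 genes compared 51.4% were lower and 21.6% higher, with a median of -1.09.

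The genes whose level over 15 MOV groups and states was most like that of Mymk were Trim55 (r = 0.972), Aldoa (0.961), Lmod3 (0.951), Alpk3 and Tnnt2 (both 0.948), by Pearson correlation of log2(CPM + 1) among 11028 genes. For Mymx they were Myog (0.960), Tmem38a (0.952), Bod1 (0.931), Vamp5 (0.924) and Cdkn1c (0.919). Mymk and Mymx themselves had r = 0.890 over these 15 groups. Myog set a group, the states are nested in the MuSCs and all groups share 1 library, so these values are a description.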

How the data were processed

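Single-cell RNA-seq libraries (10x Genomics, 3′ kit) were made from 1 sham and 1 MOV sample. Per the labels, cells were stained for VCAM, CD31, CD45 and Sca1 and sorted, the reads were mapped to mm10, and the submitters' processing notes name Cell Ranger 6.0.0, R 4.0.2 and Seurat 4.0.2. The growth protocol speaks of 1 mouse, whereas the study's methods give several mice per surgery group for the suspensions, so each library may hold pooled mice that cannot be told apart. The authors deposited filtered matrices of raw UMI counts (whole numbers, not normalized) for 32285 genes, with 7302661 and 88498487 UMIs in sham and MOV.

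Cells with 10% or more mitochondrial UMIs (362 in sham and 794 in MOV), cells under 1000 UMIs, the shallow copy of barcodes shared by both libraries, and the doublets ranked highest by scanpy 1.11.5 (0.8% per 1000 cells, 4 and 65 cells) were left out. The remaining cells were grouped by marker UMIs per 10000, with at least 5 of another lineage's markers, 5 of Myl4 and Myh3, 10 of Myh1, Myh2 and Myh4, 2 of Myog or 1 of the MuSC list. A cell past a cut of another lineage and a myogenic cut was called mixed. MuSC states were G2/M (10), S (10), immediate-early (50), interferon (10), matrix (25) and quiescence (5). UMIs were summed per group, scaled to CPM by all UMIs and compared as log2 ratios with exact conditional 95% intervals. Shares carry exact Clopper-Pearson intervals. A group at 0 was set to 3 counts, which gives a bound. Calls need a fold of 2 and 20 UMIs over both groups. Cells are not replicates, so no p-value was computed. Co-detection used cells thinned to 2000 UMIs, and 4000 and 10000 as alternatives.

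The members, marker lists and wider list were chosen with earlier results of these data known. The genes named are all members, genes of the wider list, and the 5 genes most like Mymk and Mymx by Pearson correlation over MOV groups of at least 20 cells, among genes with 200 UMIs. On simulated counts for Myog cells against MuSCs (13139 genes), the interval held the truth for 95.7% of unchanged genes, 95% at 2-fold and 99% at 4-fold. Python 3.11.15 (numpy 2.4.6, scipy 1.17.1, pandas 2.3.3, matplotlib 3.10.9) and R 4.3.3 were used, with edgeR 4.0.16 and DESeq2 1.42.0 for scaling factors only. Alternatives were mitochondrial limits, doublets kept, cuts halved or doubled, a minimum of 2000 UMIs, scaling and no gene minimum. Keeping the shallow copies, removing both copies, weighting every cell equally and thinning to 10000 were chosen after seeing the data. The coding sequence of Mymk is not reported here.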

Additional observations from a re-analysis of the deposited data

Results flagged for a closer look

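Fusogen transcripts were also seen in MOV cells that the comparisons above leave out, which is why they are given here. The 794 MOV cells removed for their mitochondrial share held Mymk at 116 CPM (384 UMIs, 104 to 128) and Mymx at 23.5 CPM (78 UMIs, 18.6 to 29.3), against a floor of 2.01 CPM in the removed sham cells, which held 0 UMIs of either. Of these cells 88 had a fusogen UMI, 20 had both, and 34 would have passed the Myog or Myl4/Myh3 cut. Of the 88 cells with a fusogen UMI, 37 had 10% to 20% mitochondrial UMIs and held 248 of the Mymk and 45 of the Mymx UMIs. Over all 794 removed cells, Mymk made up 83.1% of the fusogen UMIs (79.4 to 86.4), against 70.4% (68.4 to 72.3) in the Myog cells kept. The cause of this difference was not tested.

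The 109 mixed cells of MOV, which carried markers of another lineage together with myogenic ones, held Mymk at 114 CPM (325 UMIs), Mymx at 74.1 CPM (211 UMIs) and Cdh15 at 55.8 CPM (159 UMIs), where the floor of the 16 mixed sham cells was 17.5 CPM. The fusogen UMIs lay in 17 of these cells, 8 of them with both. Mymk made up 60.6% of the fusogen UMIs there (56.4 to 64.8).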

How the results depend on the processing

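No paired analysis was possible because the labels give each condition a single replicate, so the groups share fewer than 2 replicate numbers. For the same reason no replicate could be left out. Of 109 alternative values of the main results, 82 stayed within the interval of the value reported (a count within 1.5 times) and 107 kept their direction. These values include the share of Mymk-positive cells with Mymx and the share of genes 2-fold higher. Both are percentages that cannot change direction, so the count of kept directions was fixed in part.

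The Myog against MuSC difference of Mymk was 4.75 with cuts doubled, 4.23 with cuts halved and 5.02 with every cell weighted equally, and that of Mymx was 4.68 with cuts doubled and 5.03 with equal weights. The Myl4/Myh3 against Myog difference of Mymk was 2.06 at a mitochondrial limit of 5%, 1.96 with cuts doubled, 2.32 with cuts halved and 2.28 with edgeR's TMM factors. That of Mymx was 2.13 doubled, 2.52 halved and 2.61 with equal weights. Cdh15 in Myl4/Myh3 cells against MuSCs was 0.063 with cuts halved, 0.020 with TMM and -0.31 with equal weights. Dysf in sham fibre droplets was bounded at 1.82 at the 5% limit and 2.40 with both copies of shared barcodes removed. Myof in MOV against sham MuSCs was 1.23 at the 5% limit, 1.42 with cuts doubled, 2.20 with both copies removed and 1.70 with equal weights, and Cd9 was -0.51 with both copies removed and -0.49 with DESeq2's size factors. The share of genes 2-fold higher was 8.20% with no minimum, where genes with few UMIs enter. The share of Mymk-positive cells with Mymx was 47.4% at 4000 UMIs, 62.8% at 10000 and 75% without thinning, since deeper cells show more of both.

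Dysf in Myog cells against MuSCs reversed to -0.99 with cuts halved, and Mymk in sham fibre droplets (1 UMI) to 0.072 with equal weights. The cause was not tested in either case. Of 382 further values of the members, 369 kept their direction. In sham MuSCs 3 counts are worth 1.97 CPM, which limits what could be seen of the fusogens and Dysf there.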

Other observations

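Among the cell groups of each library, Cd9 was highest in the Schwann-like cells. The Schwann-like cells held 2081 Cd9 UMIs in MOV (4272 CPM, 57 cells) and 122 in sham (5356 CPM, 5 cells), against 447 and 555 CPM in the MuSCs. Jam3 was also present in the Schwann-like cells, at 183 CPM in MOV (89 UMIs) and 439 CPM in sham (10 UMIs).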
